A study of Mus musculus with 5 samples.

Results

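Open chromatin near 10 genes that build blood vessels and blood was followed in mouse embryonic skin and brain: the transcription factor genes Erg, Fli1, Tal1, Lmo2, Runx1 and Gata2, the receptor genes Kdr and Tek, and the adhesion genes Cdh5 and Pecam1. They are 10 of the 21883 protein-coding genes of the annotation used. Chromatin was profiled by ATAC-seq, which sequences the DNA that a transposase can reach, in embryos of the CD1 strain. There were 2 libraries of forelimb distal ectoderm and 2 of hindlimb distal ectoderm at E14.5, and 1 library of forebrain at E13.5. Trypsin was used to separate ectoderm from mesoderm and collagenase to digest forebrain, per the labels' protocols, so that tissue, stage and dissociation cannot be told apart between ectoderm and forebrain. The labels name no genotype, allele or treatment, and leave unstated if the replicates of a limb are from different embryos. All libraries are whole tissue: for any cell type, fewer cells and less accessible chromatin per cell cannot be told apart.

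A peak was taken for a gene when its summit lay inside the gene body or within 100 kb of it and no other protein-coding gene was nearer. Overlapping peaks of the 5 libraries were joined into regions. The 10 genes held 208 of the 182739 regions found near protein-coding genes, and all 10 had peaks. The span searched ran from 30.4 kb for Tal1, which lies between close neighbours, to 355 kb for Runx1.

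Endothelial cells line blood vessels, and the first blood stem cells bud from endothelium in the embryo. Erg and Fli1 encode ETS factors that maintain endothelial identity. Tal1, Lmo2, Gata2 and Runx1 encode proteins that act together at enhancers of blood progenitors, and Tal1 and Gata2 are also used in the choice of neuronal fate in parts of the brain. Kdr and Tek encode the endothelial receptors for VEGF and for angiopoietins, and Cdh5 and Pecam1 encode adhesion molecules of the contacts between endothelial cells. Vessels with circulating blood cells run through forebrain, whereas the ectoderm of the limb is an epithelium without vessels that lies on vascularised mesenchyme.

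The lists differed in length, with 81232 to 86219 peak rows in 3 ectoderm libraries, 55391 in hindlimb ectoderm replicate 1 and 151077 in forebrain. Depth is unknown, because the lists hold no read totals. The weakest peaks had a −log10 q of 1.3 in each list, and a site without a peak is one that missed this threshold, whether or not it was closed. With 1 forebrain library and 2 libraries per limb no test was made, and counts are described beside the same counts over all protein-coding genes. The labels were checked against defining markers: all 8 forebrain progenitor markers had a peak at the gene start in forebrain, and 4 of them, Pax6, Otx2, Hes5 and Nkx2-1, had none there in ectoderm. Start peaks of the 8 epidermis markers differed little, with 4 to 6 in each ectoderm library and 5 in forebrain, and Krt14 had none in any library. Of the 175 regions near those epidermis genes, 17 (9.71%) were shared by the 4 ectoderm libraries and missing from forebrain.

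Most regions of the 10 genes belonged to forebrain or to a single ectoderm library, and few were shared by the ectoderm libraries. Forebrain had a peak in 117 of the 208 regions. Forelimb replicates 1 and 2 had one in 62 and 52, and hindlimb replicates 1 and 2 in 26 and 60. Forebrain-only regions, which lacked a peak in every ectoderm library, numbered 81, or 38.9% (exact 95% interval 32.3 to 45.9, counting error only), beside 32.1% of regions over all genes. Ectoderm-only regions, shared by the 4 ectoderm libraries but not by forebrain, numbered 2, both near Tek (0.962%, interval 0.117 to 3.43), beside 2.35% over all genes. A further 8 regions had a peak in all 5 libraries (3.85%), beside 8.15% over all genes. The share of regions with a peak in 1 library was 74.0%, close to the 68.7% over all genes.

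Each of the 10 genes had forebrain-only regions, from 3 at Tal1, Gata2 and Pecam1 to 13 at Kdr and 16 at Runx1, beside 52.9% of all genes with at least 1. The 10 genes also had many regions of any kind, with a median of 17.5 per gene, and a median of 9 forebrain-only regions, beside 4 and 1 over all genes. The −log10 q of the forebrain-only regions had a median of 4.08 and ran from 1.36 to 67.6. Of the 81, 35 (43.2%) reached 5 or more, beside 55.3% of forebrain-only regions over all genes, and those 35 included at least 1 region of each of the 10 genes. Of the 73 regions of a single ectoderm library, 6 (8.22%) reached 5, beside 16.5% over all genes. When each list was limited to its 55391 strongest rows, forebrain-only regions of the 10 genes numbered 14 (17.3% of 81, beside 14.7% over all genes). Among regions built from peaks whose −log10 q reached 5 they numbered 45 of 85 (52.9%, beside 41.0% over all genes). Without hindlimb replicate 1 the ectoderm-only regions numbered 9 (4.62%, beside 5.18% over all genes).

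**Figure D1:**
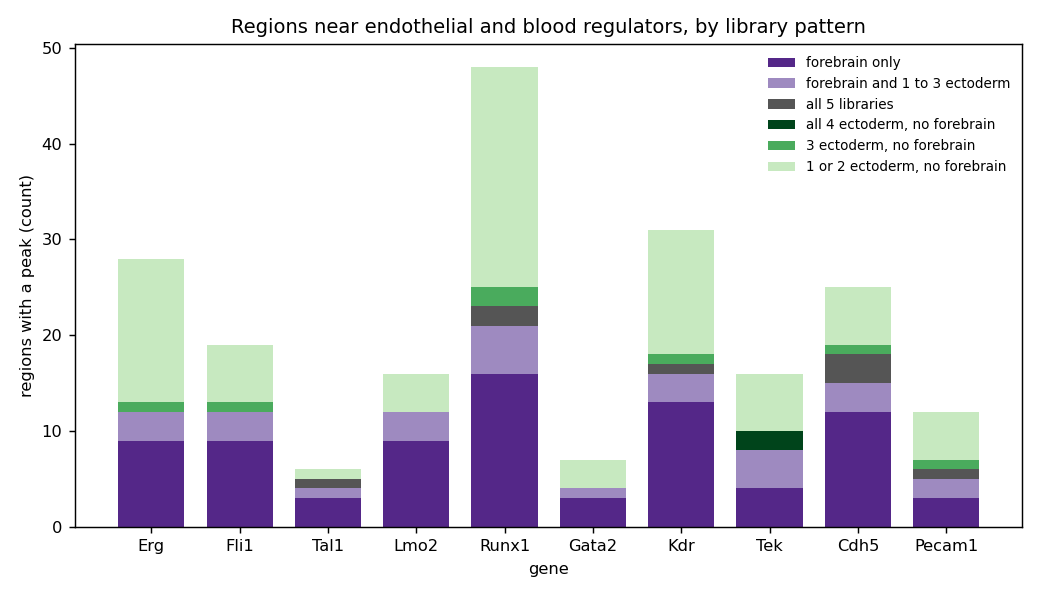
Stacked bars count the regions of each gene (horizontal axis) by the libraries that had a peak there; the vertical axis is the number of regions. The dark green segment, for regions shared by the 4 ectoderm libraries but not by forebrain, is present at Tek with 2 regions and at none of the other 9 genes.

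Regions of the 10 genes made up 0.105%, 0.0899%, 0.0632% and 0.0942% of the near-gene regions of forelimb replicates 1 and 2 and hindlimb replicates 1 and 2, and 0.121% of those of forebrain. The exact 95% intervals ran from 0.0413 to 0.0926 in hindlimb replicate 1, the shortest list, to 0.0997 to 0.144 in forebrain. They cover counting error within a list and not the spread between libraries, so they do not compare the tissues. The median rank of the peaks of these genes was below that of all peaks in every list, although single ones stood near the top. Ranked by −log10 p, where percentile 100 is the strongest peak of a list, the median rank of their peaks was 33.1, 42.3, 40.0, 28.6 and 37.6 in the order above with forebrain last. The median over all peaks near genes was 51.7 to 53.0.

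**Figure D2:**
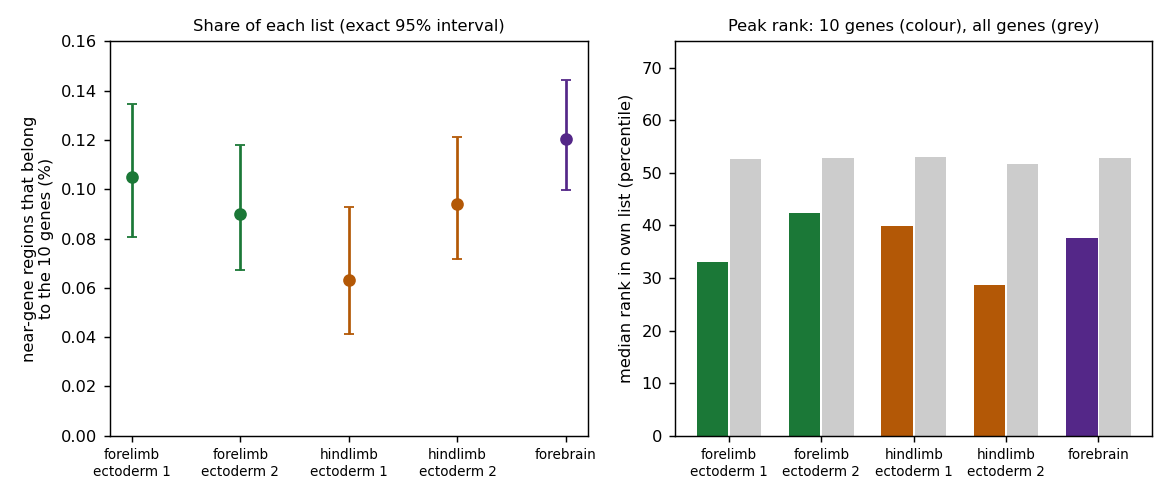
Left, points give the share of each library's near-gene regions that belong to the 10 genes in percent, with exact 95% intervals. Right, bars give the median rank (percentile) of their peaks within each list in colour, with all peaks near genes in grey; the coloured bars lie between 28.6 and 42.3 and the grey ones above 51.

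Peaks at the gene start followed the same division. A peak within 1 kb of a start was present in forebrain at 8 of the 10 genes, beside 66.0% of all protein-coding genes. It was present at 5, 4, 2 and 5 of the 10 in forelimb replicates 1 and 2 and hindlimb replicates 1 and 2, beside 61.4%, 58.9%, 52.9% and 61.1% of all genes. Runx1 and Kdr had a start peak in all 4 ectoderm libraries, which 49.0% of all genes had. At Tek the nearest hindlimb replicate 1 summit lay 1072 bp from the start, and the other libraries had a start peak. Gata2 and Cdh5 had one in forebrain but lacked it in ectoderm (3.85% of all genes), although a hindlimb replicate 1 summit lay 1037 bp from the second Gata2 start, just outside the window. Fli1 and Pecam1 had none in any library (28.2% of all genes). None of the 10 had one in all 4 ectoderm libraries without one in forebrain (0.516% of all genes). The RefSeq table of promoters lists starts for 6 of the genes; for Fli1, Lmo2, Cdh5 and Pecam1 either end of the gene was used. Counting only peaks whose −log10 q reached 5, forebrain start peaks were present at 5 of the 10 genes, and Runx1 alone had one in all 4 ectoderm libraries. The share of all genes was not counted at that cut, so these counts have no background beside them.

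The promoters on which these contrasts rest are printed here, from 250 bases before the start to 49 after it, in the direction of transcription, as RefSeq gives them for GRCm38.p6 (mm10). They are the starts of Runx1, of which one had a peak in all libraries and the other in none, those of Kdr and Tek, and a start each of Tal1 and Gata2 whose window met a forebrain peak and no ectoderm peak. Capitals mark letters searched on both strands: AGGAAG for ETS factors, AGATAA and TGATAA for GATA factors, TGTGGT for RUNX factors, the E-box CAGATG, the GC box GGGCGG and the TATA box TATAAA. A match on the other strand shows as its reverse complement.
Runx1 proximal start, chr16:92697280-92697579, minus strand: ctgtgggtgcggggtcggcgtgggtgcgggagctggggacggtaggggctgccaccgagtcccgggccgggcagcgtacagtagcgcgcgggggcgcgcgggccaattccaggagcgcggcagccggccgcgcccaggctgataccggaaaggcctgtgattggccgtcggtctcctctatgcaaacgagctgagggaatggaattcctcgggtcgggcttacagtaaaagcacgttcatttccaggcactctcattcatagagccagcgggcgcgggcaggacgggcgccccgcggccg
Runx1 distal start, chr16:92826025-92826324, minus strand: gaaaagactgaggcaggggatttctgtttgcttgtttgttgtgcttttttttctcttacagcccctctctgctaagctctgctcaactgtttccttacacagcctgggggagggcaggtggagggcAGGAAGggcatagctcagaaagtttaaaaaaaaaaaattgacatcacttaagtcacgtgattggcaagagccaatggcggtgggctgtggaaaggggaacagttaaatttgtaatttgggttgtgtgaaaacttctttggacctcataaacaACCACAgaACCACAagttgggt
Kdr, chr5:75978406-75978705, minus strand: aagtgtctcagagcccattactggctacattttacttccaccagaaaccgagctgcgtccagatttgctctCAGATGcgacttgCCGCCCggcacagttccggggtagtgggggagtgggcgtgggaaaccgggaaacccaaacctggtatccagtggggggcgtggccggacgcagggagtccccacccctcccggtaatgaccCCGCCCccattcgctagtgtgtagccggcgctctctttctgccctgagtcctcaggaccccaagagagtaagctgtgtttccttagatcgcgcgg
Tek, chr4:94739039-94739338, plus strand: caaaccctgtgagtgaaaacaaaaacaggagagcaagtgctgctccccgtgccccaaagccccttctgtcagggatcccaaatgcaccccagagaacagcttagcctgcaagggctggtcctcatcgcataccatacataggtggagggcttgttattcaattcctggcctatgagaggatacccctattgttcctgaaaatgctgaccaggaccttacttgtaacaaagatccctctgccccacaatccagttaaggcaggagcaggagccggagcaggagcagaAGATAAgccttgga
Tal1 first start, chr4:115056176-115056475, plus strand: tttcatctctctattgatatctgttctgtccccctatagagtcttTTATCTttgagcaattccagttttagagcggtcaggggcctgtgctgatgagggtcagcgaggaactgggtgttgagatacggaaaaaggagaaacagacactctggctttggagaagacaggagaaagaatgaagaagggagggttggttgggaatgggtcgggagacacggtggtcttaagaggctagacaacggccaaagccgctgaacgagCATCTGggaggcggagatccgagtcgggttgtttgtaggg
Gata2 second start, chr6:88198414-88198713, plus strand: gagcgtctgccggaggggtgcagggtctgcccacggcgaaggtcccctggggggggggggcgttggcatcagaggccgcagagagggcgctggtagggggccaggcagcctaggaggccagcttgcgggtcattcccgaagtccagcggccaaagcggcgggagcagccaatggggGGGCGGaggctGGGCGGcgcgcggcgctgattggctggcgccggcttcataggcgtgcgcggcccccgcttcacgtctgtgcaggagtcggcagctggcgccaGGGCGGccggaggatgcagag

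The Runx1 windows with and without a peak differed in composition: the proximal one held 69.0% G and C and none of the searched letters, and the distal one 45.0%, with 1 ETS match and 2 RUNX matches. The median over all 32851 promoters was 52.7%. Other windows went the other way. That of the first Gata2 start, not printed, held 69.3% and met no peak in any library. The Tek window, with 52.0%, met a peak in forelimb replicate 2 and forebrain, and an Erg window with 46.0% met one in forebrain. A link between composition and peaks was not tested. The Kdr window, with a peak in all libraries, held 1 E-box and 2 GC box matches. The second Gata2 window held 3 GC box matches and the Tek window 1 GATA match, which begins at position 36, counted from 0 at the first transcribed base. The first Tal1 window held 1 GATA match and 1 E-box match. No matches overlapped in any of these windows. Over the 11 promoters of the 6 genes, 2 held the ETS letters, beside 35.4% of all promoters, and 5 held the GC box, beside 35.7%. AGATAA stood in 3 (11.2% of all), TGATAA in 0 (9.05%), TGTGGT in 1 (16.8%), CAGATG in 2 (17.2%) and TATAAA in 1 (13.6%).

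Runx1, which encodes the factor that lets blood stem cells emerge from endothelium, had the most regions of the 10 genes (48). The region at its proximal start, chr16:92697177-92697639, had a peak in every library. Its fold enrichment, here and below the authors' value at the summit over local background, was 6.50 and 5.40 for forelimb replicates 1 and 2, 5.06 and 6.84 for hindlimb replicates 1 and 2, and 10.0 for forebrain. Its ranks were 85.6, 80.2, 85.6 and 84.2 in the ectoderm lists and 93.4 in the forebrain list. It thus ranked above percentile 80 in every list, which no other start of the 10 genes did. The adjoining region chr16:92697800-92699102 also had a peak in all 5 libraries, with a −log10 q of 4.51, 4.72, 2.44 and 10.1 in ectoderm and 56.5 in forebrain.

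The distal Runx1 start, 128.7 kb away, had no peak over its window in any library. The nearest summit lay 2548, 2584, 4215 and 2570 bp away in the ectoderm libraries and 4595 bp away in forebrain. Upstream of it, chr16:92828337-92828810 had a peak in both forelimb libraries (fold 4.39 and 4.35) and in hindlimb replicate 2 (5.63), with a −log10 q of 8.07, 8.25 and 19.8, and none in hindlimb replicate 1 or forebrain. The strongest forebrain-only region of Runx1, chr16:92883745-92884345, lay 57.8 kb upstream, with a −log10 q of 18.2.

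Tal1, the bHLH factor needed for all blood lineages, held 6 regions in its short span, 5 of them with a forebrain peak. The region chr4:115062832-115063679 inside the gene, 6.84 kb after the first start, had a peak in all 5 libraries. Its fold was 4.02, 3.72, 2.77 and 2.89 in the ectoderm libraries, with a −log10 q of 7.17, 7.56, 3.35 and 3.86, and 8.80 in forebrain, with a −log10 q of 119. The region at the first start, chr4:115056356-115057575, had a −log10 q of 55.9 in forebrain and of 1.94 in forelimb replicate 1, whose peak lay outside the printed window, and no peak elsewhere. Forebrain-only regions stood 3.66 kb before the start (chr4:115052538-115053018, −log10 q 42.9) and 23.3 kb after it, beyond the gene (chr4:115078991-115080198, −log10 q 67.6). The latter was the most significant forebrain-only region of the 10 genes. These 4 forebrain peaks ranked at percentiles 83.6 to 93.1 of their list. The fifth, in the forebrain-only region chr4:115069298-115069534 inside the gene, was among its weakest, with a −log10 q of 1.36 and a rank of 0.265.

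**Figure D3:**
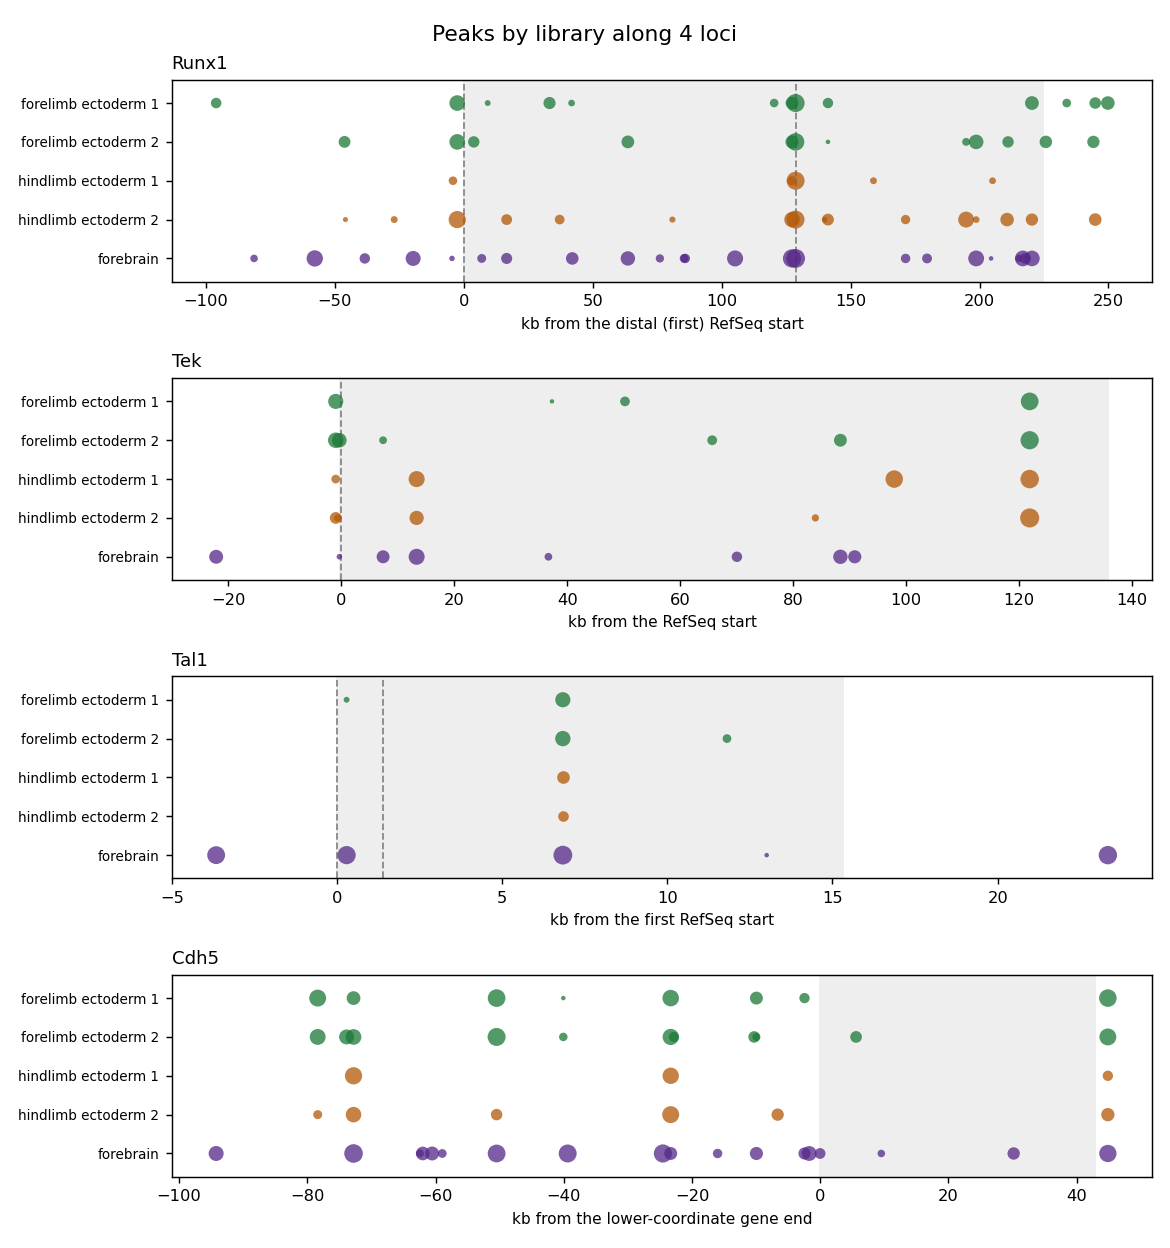
Each dot is a peak region of Runx1, Tek, Tal1 or Cdh5, by library (rows) and distance in kb (horizontal axis); larger dots rank higher by p within their own list, grey shading is the gene body and dashed lines are RefSeq starts. Dots line up in all rows at the proximal Runx1 start and inside Tal1, in the 4 ectoderm rows near the far end of Tek, and in the forebrain row alone on both sides of Tal1.

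Lmo2, which encodes the LIM protein that bridges Tal1 and GATA factors, had 16 regions, of which 9 were forebrain-only. Inside the gene, chr2:103969322-103970905 had a peak in both forelimb libraries, hindlimb replicate 2 and forebrain, with a −log10 q of 4.55, 6.56, 2.40 and 59.5. At the higher-coordinate end of the gene, chr2:103982245-103982556 had a −log10 q of 8.65 in forelimb replicate 2, 12.4 in hindlimb replicate 2 and 30.5 in forebrain. The other replicate of each limb had no peak there. The best-ranked forebrain-only region, chr2:103881126-103881597, lay 76.6 kb below the lower-coordinate end, with a −log10 q of 16.5.

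Gata2, the zinc-finger factor of blood stem and progenitor cells, had 7 regions. The second of its 2 starts, 4.77 kb into the gene, had a weak forebrain peak (fold 2.49, −log10 q 4.40) and no ectoderm peak within 1 kb, and the first had none in any library. Hindlimb replicate 1 had a peak just past that window, in chr6:88199603-88199802, with a fold of 3.01 and a −log10 q of 4.83. The strongest region of the locus, chr6:88189465-88190430, lay 4.21 kb before the first start, in the long non-coding gene Gm38708. There the fold was 3.48 and 3.10 for the forelimb replicates, 2.57 for hindlimb replicate 2 and 7.80 for forebrain, with a −log10 q of 6.63, 4.70, 3.13 and 66.9. Hindlimb replicate 1 had no peak in it.

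Erg, the ETS factor most closely tied to mature endothelium, had 28 regions and none in all 5 libraries. The region nearest its first start, chr16:95585128-95585962, with a summit 0.931 kb inside the gene, had a fold of 5.21 in forelimb replicate 1, 3.08 in hindlimb replicate 2 and 10.6 in forebrain, and no peak in the other replicate of either limb. Its −log10 q was 12.8, 4.35 and 61.0. The 300 bases of promoter at that start met no peak in any library. Beyond the far end of Erg, chr16:95341071-95341856 had a −log10 q of 21.3 and 16.7 in forelimb, 23.1 in hindlimb replicate 2 and 39.3 in forebrain, and ranked at percentiles 79.7 to 84.7 in the 4 lists that held it. The best forebrain-only region of Erg was weak, with a −log10 q of 5.36 (chr16:95421562-95421978).

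Fli1, the related ETS factor shared by endothelium and blood, had 19 regions and no peak within 1 kb of either gene end in any library. The nearest forebrain summit lay 2556 bp inside the higher-coordinate end. Its strongest region was forebrain-only, chr9:32449824-32450584 inside the gene, with a fold of 7.06 and a −log10 q of 32.1. Beyond the higher-coordinate end, chr9:32562422-32562730 was called in both forelimb libraries and in hindlimb replicate 2, with a −log10 q of 4.58, 5.17 and 3.85, and not in forebrain. A forebrain summit lay 777 bp from it.

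Tek, the angiopoietin receptor, was the member with ectoderm-only regions, of which 14.2% of all genes had at least 1. With lists of equal length Tek and Cdh5 had 1 each. The stronger of the 2, chr4:94860839-94861398, lay inside the gene, 121.8 kb after the start and 13.8 kb before the far end. Its fold was 6.19 and 6.76 for forelimb replicates 1 and 2 and 5.95 and 13.1 for hindlimb replicates 1 and 2, with a −log10 q of 17.8, 26.1, 21.6 and 107. It ranked at percentiles 81.8, 87.5, 89.7 and 96.1, and the nearest forebrain summit was 30958 bp away. No other gene of the annotation overlapped it. It thus ranked above percentile 80 in all 4 ectoderm lists, and all 4 of its peaks had a −log10 q above 5.

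The other ectoderm-only region of Tek, chr4:94737984-94738495, lay 0.983 kb before the start. It was weaker, with a fold of 4.20, 4.18, 2.63 and 3.50 and a −log10 q of 7.04, 7.81, 2.24 and 4.55. A forebrain summit lay 836 bp from it, in the region chr4:94738836-94739250, which reaches into the printed promoter. There forebrain had a −log10 q of 1.78 and forelimb replicate 2 one of 6.29. Forebrain and forelimb peaks thus stood side by side within 1 kb of the start. Tek also had the one hindlimb-only region of the 10 genes, chr4:94752404-94752994, 13.3 kb after the start, with a fold of 3.87 and 4.39 in hindlimb and none in forelimb. Forebrain shared this region, with a fold of 4.95.

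Kdr, the main VEGF receptor of endothelium, had 31 regions, 13 of them forebrain-only. Its start lay in chr5:75977986-75978883, which had a peak in all 5 libraries and also falls in the long non-coding gene Gm32727. The fold was 6.25 and 5.04 for forelimb, 4.47 and 3.14 for hindlimb and 7.83 for forebrain, with a −log10 q of 17.1, 9.90, 9.72, 4.15 and 53.8. Hindlimb replicate 2 thus fell below 5, and its rank of 28.8 was the lowest, whereas the other ectoderm lists placed it at 68.4 to 81.1. On the far side of the gene, 70.0 kb beyond its end, chr5:75862095-75862937 had a −log10 q of 6.32 in forelimb replicate 1, 5.72 and 10.1 in hindlimb and 46.1 in forebrain.

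Cdh5, which encodes VE-cadherin of endothelial junctions, had 25 regions, of which 21 lay more than 1 kb outside the gene. It had the most regions with a peak in all 5 libraries (3) and 12 forebrain-only regions. A forebrain summit lay 30 bp from the lower-coordinate end, in a weak peak (fold 2.64, −log10 q 4.06), and no ectoderm summit lay within 1 kb of either end. The strongest shared region, chr8:104028597-104029014, lay 72.8 kb below the lower end, in the long non-coding gene Gm32728. Its fold was 3.41 and 3.96 for forelimb, 4.30 and 4.53 for hindlimb and 10.6 for forebrain, with a −log10 q of 5.34, 8.30, 9.24, 10.4 and 86.7.

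A pair of neighbouring Cdh5 regions differed in pattern. The forebrain-only region chr8:104076747-104077471 had a fold of 9.82 and a −log10 q of 55.1. The region chr8:104078066-104078509, 23.3 kb below the lower end, had a peak in all 5 libraries. Its −log10 q was 10.6 and 9.83 for forelimb, 6.49 and 17.7 for hindlimb and 6.28 for forebrain, where it ranked at percentile 41.4, against 68.0 to 74.8 in the ectoderm lists. A further forebrain-only region, chr8:104061838-104062624, had a −log10 q of 46.2. Beyond the higher end, chr8:104146020-104146857 was shared by all 5 libraries, with a fold of 6.15 and 5.03 for forelimb, 2.79 and 3.62 for hindlimb and 7.06 for forebrain.

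Pecam1, an adhesion molecule of endothelium and several blood cells, had 12 regions. The region chr11:106657886-106658564 inside the gene had a peak in all 5 libraries, with a fold of 8.49 and 4.74 for forelimb, 4.58 and 9.20 for hindlimb and 6.59 for forebrain. Its −log10 q was 30.6, 12.1, 11.6, 42.9 and 25.7, so that every list held it well above the threshold. Another region inside the gene, chr11:106706237-106706605, had a −log10 q of 4.06, 8.60 and 15.8 in forelimb replicates 1 and 2 and hindlimb replicate 2 and no forebrain peak within 16689 bp. The strongest forebrain-only region, chr11:106722790-106723428, lay 7.79 kb beyond the higher-coordinate end, with a −log10 q of 24.8.

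In all, 23 regions of the 10 genes had a peak in 3 or more ectoderm libraries, and 9 of them had no forebrain peak (39.1%, beside 31.0% over all genes). Of the 13 with a peak in exactly 3, 12 were missing from hindlimb replicate 1, the shortest list (92.3%, beside 81.5% over all genes). The 7 regions with 3 ectoderm peaks and no forebrain peak were spread over Runx1 with 2 and Erg, Fli1, Kdr, Cdh5 and Pecam1 with 1 each.

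**Figure D4:**
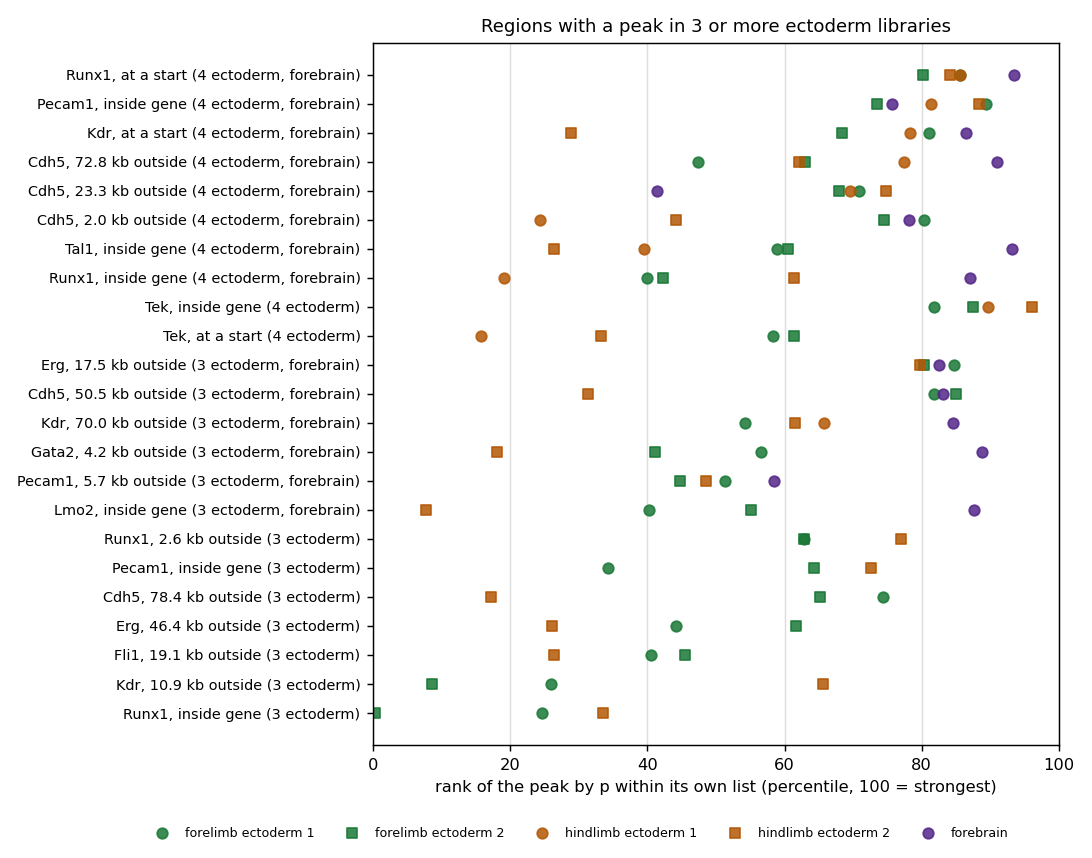
Points give the rank (percentile within each library's own list, 100 the strongest) of the 23 regions with a peak in 3 or more ectoderm libraries; colours and symbols are libraries, and a missing point means no peak. The Tek region inside the gene lies between 81.8 and 96.1 in the 4 ectoderm lists and has no forebrain point, whereas the proximal Runx1 start lies above 80 in all 5.

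By position, 12 of the 208 regions lay within 1 kb of a start or, where no start was given, of a gene end. Elsewhere, 101 lay inside the gene and 95 outside it. Forebrain-only regions were divided in much the same way, with 4, 38 and 39. Regions with a summit inside a gene body made up 52.4% of all (95% interval 45.4 to 59.4), beside 61.0% over all genes, and 50.6% of the forebrain-only ones (39.3 to 61.9), beside 63.6%. The share outside the gene and not at a start or end ranged from 1 of 16 regions at Tek to 24 of 31 at Kdr and 21 of 25 at Cdh5. The 3 start regions of Tek also lay outside the gene, within 1 kb of it. The gene body filled 136 of the 159 kb searched at Tek, 46.2 of 227 kb at Kdr and 42.9 of 156 kb at Cdh5.

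Forelimb and hindlimb ectoderm were compared to see whether these loci differ between the limbs. Forelimb-only regions, with a peak in both forelimb and in neither hindlimb library, numbered 4 (1.92%, beside 1.99% over all genes), and the single hindlimb-only region made up 0.481% (0.673% over all genes). At Erg they were chr16:95576427-95576720, inside the gene, with a −log10 q of 11.0 and 9.50, and chr16:95605351-95605621, upstream, with 6.43 and 5.66. At Cdh5 they were chr8:104061306-104061642, with 1.36 and 2.68, and chr8:104091447-104091758, with 4.66 and 2.51, which forebrain shared at 6.36. These shares stood close to those over all genes. With lists of equal length the forelimb-only regions numbered 8 of 81 (9.88%, beside 2.74%). Among peaks whose −log10 q reached 5 they numbered 7 of 85 (8.24%, beside 2.12%).

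Regions near other genes of the 2 lineages showed a similar balance of classes. Near 30 further endothelial genes there were 442 regions, of which 9 (2.04%) were ectoderm-only and 183 (41.4%) forebrain-only. Near 25 further blood genes there were 369, with 7 (1.90%) and 150 (40.7%). Over all genes the shares were 2.35% ectoderm-only and 32.1% forebrain-only. Counts of single genes are given here out of all regions of the gene. The endothelial genes with most forebrain-only regions were Mef2c (25 of 56), Nrp2 (22 of 40), Nrp1 (20 of 40) and Prox1 (15 of 36). Tie1, Sox7, Etv2 and Foxc2 had no forebrain-only region. Ets2 had the most ectoderm-only regions (2 of 24). Among blood genes the most forebrain-only regions were at Mecom (40 of 81), Meis1 (17 of 39) and Etv6 (14 of 43). Kit (11 of 28) and Ptprc (11 of 36) followed, and Etv6 had the most ectoderm-only regions (2 of 43). Klf1, Spi1 and Csf1r had no forebrain-only region. In which cells of the forebrain the regions of either list were open was not tested.

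At gene starts, 23 of the 30 endothelial genes had a forebrain peak, beside 66.0% of all genes. In forelimb replicates 1 and 2 and hindlimb replicates 1 and 2, 19, 14, 13 and 15 had one, beside 61.4%, 58.9%, 52.9% and 61.1% of all genes. Of the 25 blood genes, 22 had a forebrain peak and 18, 16, 11 and 17 an ectoderm peak in the same order, to be read beside the same shares of all genes. Forebrain start peaks without one in ectoderm were found at Flt4, Esam, Plvap and Notch4 (4 of 30 endothelial genes). Among the 25 blood genes they were found at 4, Gata1, Klf1, Lyl1 and Gfi1b, beside 3.85% of all genes. The only region of Klf1 nonetheless had a peak in all 5 libraries, with no ectoderm summit within 1 kb of the start. In the other direction, Mmrn2, which encodes a protein of the endothelial surface, had a start peak in all 4 ectoderm libraries and none in forebrain (0.516% of all genes). Etv2 had a start peak in hindlimb replicate 2 alone.

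Markers of single cell types are short lists, which were not tested. Of 6 erythroid markers, 5 had a start peak in forebrain, beside 66.0% of all genes, and 2, 2, 1 and 2 in the ectoderm libraries, beside 52.9% to 61.4%. The 3 with a forebrain start peak and no ectoderm one (3.85% of all genes) were Gata1, Klf1 and Alas2. Gata1 and Klf1 are erythroid transcription factors, and Alas2 is the heme synthesis enzyme of red cells. The only region of Klf1 had a peak in all 5 libraries. Of 6 macrophage and microglia markers, 1 had a start peak in each of the 5 libraries, Spi1, beside 52.9% to 66.0% of all genes by library. No start peak was called in any library at Csf1r, Cx3cr1, Aif1, Ptprc or Cd68, beside 28.2% of all genes. Of 8 endothelium markers outside the 10 genes, 6 had a start peak in forebrain, beside 66.0% of all genes. In the ectoderm libraries 5, 2, 4 and 3 had one, beside 61.4%, 58.9%, 52.9% and 61.1%. The part of such cells in the peaks of the 10 genes was not tested.

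**Figure D5:**
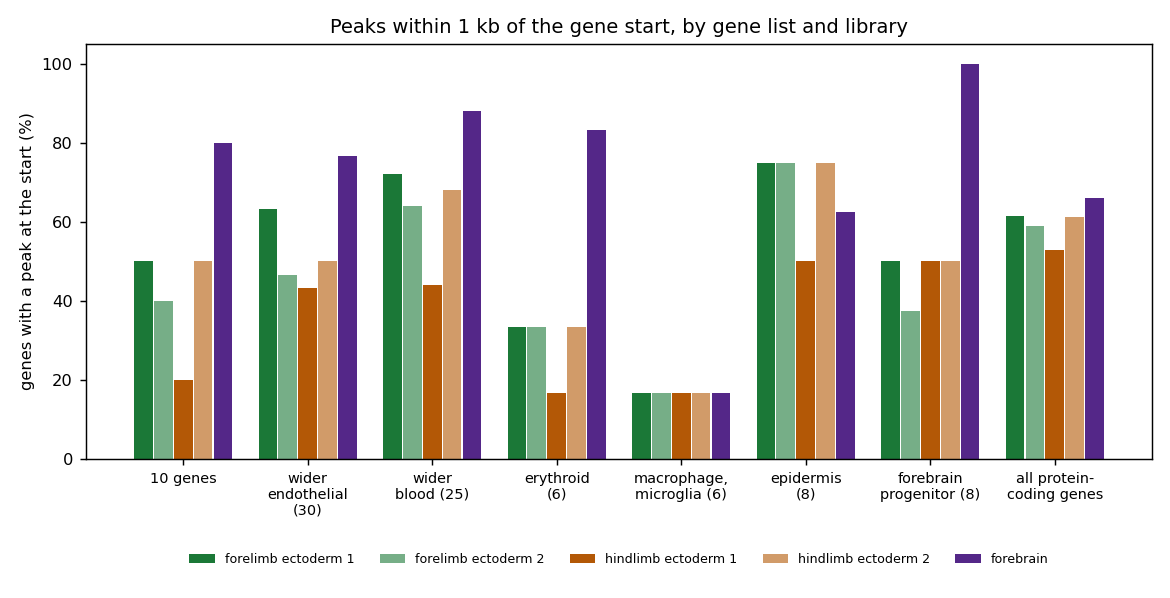
Bars give the percent of genes of each list with a peak within 1 kb of the gene start, by library in colour, with all protein-coding genes at the right. The forebrain bar is 8 of 10 for the 10 genes and 5 of 6 for erythroid markers, above the ectoderm bars of those lists, whereas all bars of the macrophage and microglia list stand for 1 of 6.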

How the data were processed

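Accessible chromatin was measured in 5 libraries by ATAC-seq. The submitters' processing notes list the mm10 build, MACS2 2.1.1.20160309 and Bowtie2 2.3.5, with cutadapt 1.16, bedtools and Picard. A read shift for the transposase is not stated there. Each library has its own peak list from the authors, so replicates were not pooled. The deposited lists give the authors' fold enrichment ratio at the summit, its −log10 p-value and −log10 q-value, and a score that was not used.

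Only peaks on the autosomes and sex chromosomes were used, and rows overlapping by 1 bp were joined into 231612 regions. Genes and starts came from RefSeq tables of GRCm38.p6; 17491 of 21883 protein-coding genes have a listed start, and either gene end served for the rest. Regions named are those nearest a start with 3 or more libraries, all ectoderm-only and limb-only regions, the best-ranked ones shared by all libraries or found in forebrain alone, and the best with 3 ectoderm libraries and no forebrain peak. Others named were chosen after their values were seen. Members, lists and motifs were chosen with earlier results of these data known. Intervals of shares are 95% Clopper-Pearson intervals for counting error. Code (Python 3.11.15, pandas 2.3.3, SciPy 1.17.1) was tested on simulated data. Alternatives were a −log10 q of 5 or more, 100 bp of overlap, a 20 kb gene window, a 2.5 kb start window, lists of equal length and leaving out each ectoderm library.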

Additional observations from a re-analysis of the deposited data

How the results depend on the processing

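No paired analysis was possible because the results are counts of called peaks with no test. The counts for the 10 genes were recomputed under each alternative. At a −log10 q of 5 or more, 85 regions were left, of which 1 was ectoderm-only (1.18%, beside 2.95% over all genes), 45 forebrain-only (52.9%, beside 41.0%) and 7 forelimb-only (8.24%, beside 2.12%), and a start peak was present in all 4 ectoderm libraries at 1 gene and in forebrain at 5. With lists of equal length, forebrain-only regions numbered 14 (17.3%, beside 14.7%) and forelimb-only 8 (9.88%, beside 2.74%), and the start counts were 1 and 5. Within 2.5 kb, 4 genes had a start peak in all 4 ectoderm libraries. For start peaks, the shares over all genes were not recomputed under any alternative. A 100 bp overlap and a 20 kb gene window moved none of these counts by over 1.5 times. Leaving out 1 ectoderm library at a time gave 2 to 9 ectoderm-only, 81 to 87 forebrain-only, 4 to 31 forelimb-only and 1 to 26 hindlimb-only regions. At the highest of these counts the shares were 4.62% ectoderm-only (5.18% over all genes) and 46.5% forebrain-only (37.2%). For the limbs they were 16.3% forelimb-only (13.8%) and 13.3% hindlimb-only (14.2%). The limb counts widen by construction, since 1 library then stands for a limb. The 9 ectoderm-only regions were those without hindlimb replicate 1. Start counts then ran from 2 to 3 in ectoderm and stayed at 8 in forebrain. Of 384 values for single genes and regions, 46 moved by over 1.5 times. The lists hold no read totals, so what depth limits is unknown.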
